A study of Mus musculus with 9 samples.

Results

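The markers of adipose stromal progenitors examined were 8 genes measured in white adipose tissue (WAT): Pdgfra, Pdgfrb, Cd34, Ly6a, Dpp4, Pi16, Dcn and Lum. Members were the transcript clusters (probe sets that each stand for a transcript region) whose symbol in the platform annotation was one of these names. A row was found for 6 of the 8, with 1 cluster each, among 19505 genes so named. Pdgfra and Ly6a are on the list but have no row under their symbol in that annotation, and were not analysed here.

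Tissue came from male mice bought at 6 weeks of age and profiled on 9 Clariom S mouse arrays, 3 per group, 1 array per sample. The groups were ob/ob mice (C57BL/6JHamSlc-ob/ob, which lack functional leptin and become obese) given 100 mg/kg of Vigna umbellata (rice bean) extract, abbreviated VE, ob/ob mice given vehicle, and wild type mice (C57BL/6JHamSlc-+/+) given vehicle. VE was given by oral gavage, treatment lasted 42 days, and all groups ate standard chow. The ob/ob mutation is carried in every cell from birth, and the labels give the tissue as WAT without a depot. Values are log2 signals, so a difference of 1 is a doubling. In whole tissue, fewer cells of a type and less RNA per cell cannot be told apart.

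White fat holds a stromal compartment of fibroblast-like cells between its adipocytes and vessels, and new adipocytes form from some of these cells. Platelet-derived growth factor receptors, the sialomucin CD34 and the surface protein SCA-1 (Ly6a) are used to sort them. Single-cell work in mice described a DPP4 and PI16 positive state in the interstitial sheath of the tissue that can give rise to preadipocytes. Decorin and lumican are small proteoglycans that fibroblasts secrete and that bind collagen fibrils.

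Cd34, Dpp4 and Pi16 are the measured surface and secreted progenitor markers for which RefSeq promoter sequence was at hand, and the stretch just before the outermost annotated start of each gene is shown, 5′ to 3′ on the gene's strand in GRCm38.p6. Cd34 lies at chr1:194938571-194938820 on the plus strand, Dpp4 at chr2:62412316-62412481 on the minus strand and Pi16 at chr17:29318632-29318795 on the plus strand. The letters of 3 common promoter boxes were searched on both strands, and capitals mark a match. The TATA box was searched as TATAAA in each of the windows. The GC box, bound by factors of the Sp1 family, was searched as GGGCGG in the same way. The box bound by nuclear factor Y was searched as CCAAT in the same way.
Cd34: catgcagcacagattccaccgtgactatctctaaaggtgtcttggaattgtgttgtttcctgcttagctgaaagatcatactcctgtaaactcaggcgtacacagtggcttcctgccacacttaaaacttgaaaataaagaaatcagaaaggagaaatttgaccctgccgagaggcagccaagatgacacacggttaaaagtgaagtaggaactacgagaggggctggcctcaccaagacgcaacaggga
Dpp4: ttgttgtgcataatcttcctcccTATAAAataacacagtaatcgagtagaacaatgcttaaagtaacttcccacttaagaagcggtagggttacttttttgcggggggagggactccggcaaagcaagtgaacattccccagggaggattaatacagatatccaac
Pi16: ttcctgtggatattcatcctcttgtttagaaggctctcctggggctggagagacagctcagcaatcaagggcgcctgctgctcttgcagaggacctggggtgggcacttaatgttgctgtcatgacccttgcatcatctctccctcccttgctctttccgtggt
The search found 1 match, a TATAAA in the Dpp4 window, starting 143 bases before the end of the window, farther from the start site than a TATA box usually lies. TATAAA occurred in 7.91% of 32851 promoter windows of 166 bases, the length of the Dpp4 window, GGGCGG in 18.9% and CCAAT in 22.4%. In windows of 250 bases, the length of the Cd34 window, the shares were 12.4%, 32.7% and 33.8%. The background windows were matched in length only, not in distance from the start site. The windows of Cd34 and Pi16 held none of these letters. Their GC content was 46.4% for Cd34, 42.8% for Dpp4 and 54.3% for Pi16.

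Of the 6 measured markers, 2 passed the test against wild type mice and 4 did not. The pericyte and progenitor receptor Pdgfrb was higher in both ob/ob groups than in wild type mice, and lumican (Lum) was higher in VE-treated ob/ob mice than in wild type mice. Decorin (Dcn), Cd34, Dpp4 and Pi16 passed the threshold in none of the 3 comparisons. Genes counted as called had an adjusted p under 0.05 in limma, a linear model with a moderated spread fitted over all 19572 annotated clusters. None of the 6 measured markers passed between VE and vehicle in ob/ob mice. The Pdgfrb and Lum calls were lost when wild type arrays 1 and 2, which held the most epithelial signal, were both left out. That fit rests on 1 wild type array, so a lost call there does not show that a marker did not differ.

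**Figure D1:**
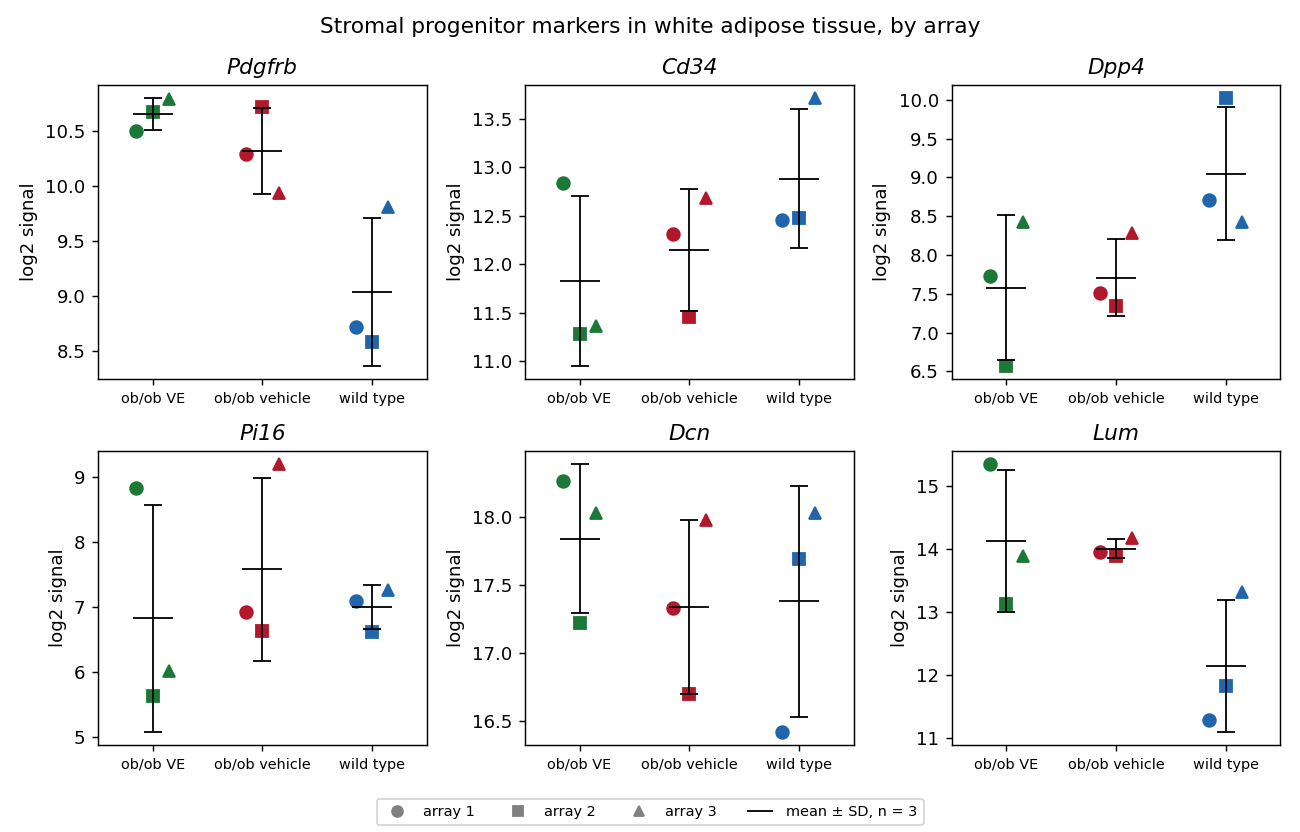
Log2 signal of each measured marker (y axis, 1 panel per gene, axes not starting at 0) on the 3 arrays of each group (x axis); bars are mean ± SD, n = 3. Pdgfrb lies above every wild type array on all 6 ob/ob arrays, while Dcn and Pi16 overlap across the 3 groups.

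Pdgfrb encodes the beta receptor for platelet-derived growth factor, carried by pericytes and by stromal progenitors. Its signals were 10.50, 10.67 and 10.79 in VE-treated ob/ob mice and 10.29, 10.72 and 9.94 in ob/ob vehicle mice, against 8.72, 8.58 and 9.81 in wild type mice. All VE and all ob/ob vehicle arrays lay above all wild type arrays, the closest pair being 9.94 and 9.81. Between ob/ob vehicle and wild type mice the difference was 1.28 ± 0.345 (log2, SE, n = 3), or 2.43-fold, with an adjusted p of 0.034 by limma. Pdgfrb was the 1 member of 6 called in this comparison, where 14.1% of all clusters were called, 9.02% higher and 5.05% lower. Between VE-treated and wild type mice the difference was 1.62 ± 0.345 (adjusted p = 0.00965 by limma). With wild type arrays 1 and 2 left out, an alternative chosen after seeing the data in which the lone wild type array is assumed to vary like the other groups, the difference was 0.51 for ob/ob vehicle (adjusted p = 0.439 by limma) and 0.84 for VE (adjusted p = 0.151). The call for ob/ob vehicle was lost in 7 of the 9 fits that left out 1 array, the exceptions being those without ob/ob vehicle array 3 and without wild type array 3, and the call for VE was lost in none of the 9. Both comparisons with wild type use the same 3 wild type arrays. The list of mural cell genes, for the pericytes and smooth muscle cells that also carry Pdgfrb, had a mean of 8.83 to 8.91 on the VE arrays, 8.47 to 8.76 on the ob/ob vehicle arrays and 9.13 to 11.08 on the wild type arrays. Its smooth muscle genes Myh11 and Cnn1 were higher on all 3 wild type arrays than on every ob/ob array, and highest on wild type array 2. Myh11 read 7.93, 8.09 and 7.93 in VE and 7.64, 8.04 and 8.45 in ob/ob vehicle mice, against 12.74, 18.13 and 9.79 in wild type mice. The pericyte gene Cspg4 was higher in VE than in wild type mice (1.32, adjusted p = 0.0315 by limma) and did not pass for ob/ob vehicle (1.09, adjusted p = 0.0816). Of the 11 measured mural genes, 1 (Cspg4) was higher, 2 were lower and 8 were not called for VE, with a median of 0.21. For ob/ob vehicle 0 were higher, 2 lower and 9 not called, with a median of −0.22. The shares of all clusters called were 20.0% for VE and 14.1% for ob/ob vehicle. Cspg4 therefore does not stand for the other mural genes. The part of mural cells in the Pdgfrb values was not tested.

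Cd34 encodes a sialomucin of progenitor cells that endothelial cells carry as well. It read 12.84, 11.28 and 11.37 in VE-treated mice and 12.31, 11.46 and 12.68 in ob/ob vehicle mice, against 12.46, 12.48 and 13.71 in wild type mice. Wild type array 3 was the highest of the 9, and the groups overlapped. The difference was −0.73 for ob/ob vehicle against wild type (95% interval −1.86 to 0.40; adjusted p = 0.394 by limma) and −1.05 for VE against wild type (−2.18 to 0.08; adjusted p = 0.175). The list of endothelial genes had 0 of 11 measured members called in both of these comparisons. Of all clusters, 14.1% were called for ob/ob vehicle and 20.0% for VE.

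Dpp4 encodes the peptidase DPP4 (CD26), and Pi16 a secreted protease inhibitor; together they mark the interstitial state. Dpp4 read 7.73, 6.57 and 8.43 in VE-treated mice and 7.51, 7.34 and 8.28 in ob/ob vehicle mice, against 8.71, 10.02 and 8.42 in wild type mice. The ob/ob vehicle arrays all lay below the wild type arrays. That difference of −1.34 (95% interval −2.52 to −0.16) did not pass (adjusted p = 0.128 by limma). Between VE-treated and wild type mice the difference was −1.47 (adjusted p = 0.0789 by limma). The highest VE array and the lowest wild type array were 8.43 and 8.42. With wild type array 3 left out that difference passed, at −1.79 (adjusted p = 0.0421 by limma). The Dpp4 difference without wild type arrays 1 and 2 was −0.84 for VE (adjusted p = 0.439 by limma) and −0.71 for ob/ob vehicle (adjusted p = 0.565). Wild type array 2, where Dpp4 was highest, also had the highest mean of the epithelium list, 9.26, and of the mural list, 11.08. The mean of the mesothelium list was 6.07, 4.94 and 7.42 on VE arrays 1 to 3, in the order of Dpp4, and 6.91, 5.51 and 6.87 on ob/ob vehicle arrays 1 to 3, where Dpp4 was highest on array 3. The part of these cell types in the Dpp4 values was not tested. Pi16 read 8.84, 5.63 and 6.01 in VE-treated mice and 6.92, 6.63 and 9.20 in ob/ob vehicle mice, against 7.10, 6.62 and 7.27 in wild type mice. In each ob/ob group 1 array stood well above the other two, and the pooled SD within groups of Pi16, at 1.31, was the largest of the 6 markers. Its difference between ob/ob vehicle and wild type mice was 0.59 (adjusted p = 0.71 by limma), with a 95% interval from −1.31 to 2.48, which includes a 2-fold difference in both directions. With ob/ob vehicle array 3 left out the difference turned to −0.22.

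Of the proteoglycans, Dcn read 18.26, 17.22 and 18.03 in VE-treated mice and 17.33, 16.70 and 17.98 in ob/ob vehicle mice, against 16.42, 17.69 and 18.03 in wild type mice. The 3 groups overlapped. Between ob/ob vehicle and wild type mice the difference was −0.04 ± 0.475 (SE, n = 3; 95% interval −1.10 to 1.01; adjusted p = 0.966 by limma). Between VE-treated and wild type mice it was 0.46 (95% interval −0.60 to 1.51; adjusted p = 0.536). Lum read 15.34, 13.12 and 13.89 in VE-treated mice, against 11.28, 11.82 and 13.31 in wild type mice, with 1 VE array inside the wild type range. The difference was 1.98 ± 0.595 (adjusted p = 0.0416 by limma), which made Lum and Pdgfrb the 2 of 6 members called there, where 20.0% of all clusters were called, 12.4% higher and 7.58% lower. On the ob/ob vehicle arrays Lum was nearly level, at 13.94, 13.89 and 14.17, above every wild type array. That difference of 1.86 ± 0.595 did not pass (adjusted p = 0.0659 by limma). It did so with wild type array 3 left out, at 2.45 (adjusted p = 0.00951 by limma), and with VE array 1 left out (adjusted p = 0.037). Without wild type arrays 1 and 2 the Lum difference was 0.69 for ob/ob vehicle (adjusted p = 0.601 by limma) and 0.81 for VE (adjusted p = 0.491). The Lum call for VE was lost in 7 of the 9 fits that left out 1 array, the exceptions being those without VE array 2 and without wild type array 3.

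Across the markers, the groups did not overlap for 3 of 6 members between ob/ob vehicle and wild type mice (Pdgfrb and Lum higher, Dpp4 lower), where 28.9% of all clusters did not overlap, 15.7% higher and 13.1% lower. They did not overlap for 1 of 6, Pdgfrb, between VE and wild type mice, where the share over all clusters was 37.2%, with 19.5% higher. With the limits of the series text applied to the limma fit (a fold over 1.1 and a p under 0.05 before adjustment), Pdgfrb, Lum and Dpp4 passed in both comparisons, 3 of 6 each, where 28.4% of all clusters passed for ob/ob vehicle and 33.9% for VE. The median difference of the 6 was 0.27 for ob/ob vehicle against wild type and 0.14 for VE against wild type, beside −0.03 and −0.07 over all genes. For the adjusted calls, 1 call fewer would put the members' share below the background share in both comparisons.

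**Figure D2:**
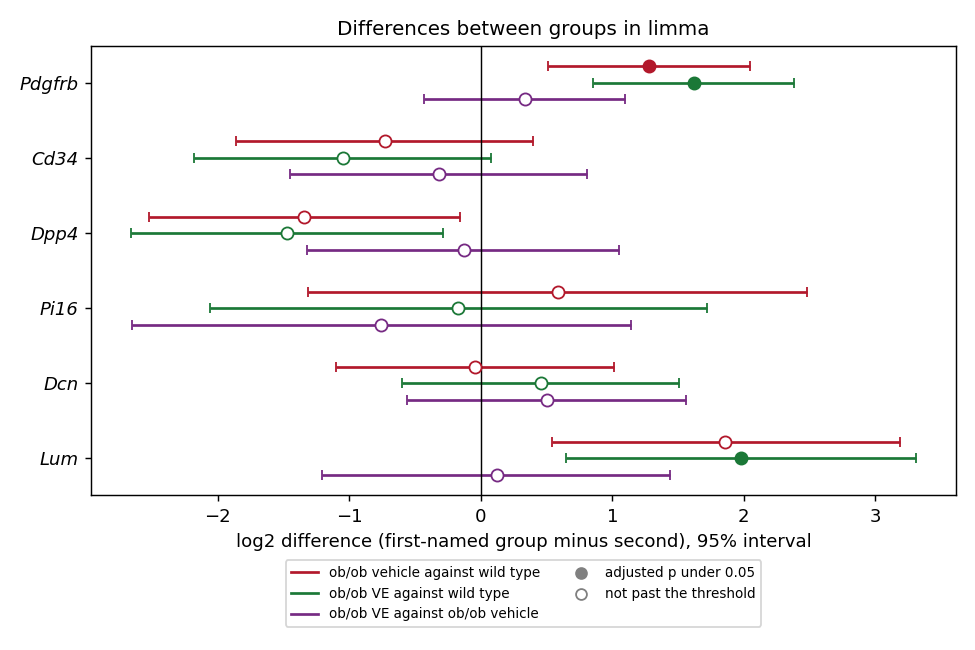
Log2 difference of each measured marker (y axis) in the 3 comparisons, first-named group minus second (x axis), with 95% intervals from limma; filled points passed an adjusted p of 0.05. Filled points are Pdgfrb in both comparisons with wild type and Lum in VE against wild type.

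The effect of the extract itself was read from VE against vehicle within ob/ob mice. None of the 6 markers passed, where 0.0255% of all clusters were called, and all 6 had an adjusted p of 1.0 by limma. At an unadjusted p under 0.05 with a fold over 1.1, the count was also 0 of 6, against 4.56% of all clusters. The groups overlapped for all 6, where 12.6% of all clusters did not overlap. The differences ran from −0.76 for Pi16 (95% interval −2.65 to 1.14) to 0.50 for Dcn (−0.56 to 1.56). Pdgfrb, the marker with the narrowest interval, differed by 0.34 (−0.43 to 1.10). Lum differed by 0.12 (−1.21 to 1.44), Dpp4 by −0.13 (−1.32 to 1.05) and Cd34 by −0.32 (−1.45 to 0.81). These intervals include 2-fold changes in at least 1 direction for every marker, so the data do not show that the extract left them unchanged.

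Several markers were high on the same arrays of a group. In each group, 1 array was highest for Cd34, Pi16, Dcn and Lum together. This was array 1 in VE, array 3 in ob/ob vehicle and array 3 in wild type mice. Some of these deviations were small. Lum lay only 0.17 above its group mean on ob/ob vehicle array 3, and Pi16 only 0.27 above its own on wild type array 3. VE array 2 was lowest of its group for 5 of 6 markers, and ob/ob vehicle array 2 for 5 of 6. Pi16 lay 2.01 above its group mean on VE array 1 and 1.62 above it on ob/ob vehicle array 3. Pdgfrb was below its group mean on these 2 arrays, by −0.15 and −0.38, and above it by 0.77 on wild type array 3. Dpp4 was highest on VE array 3 and wild type array 2, and on ob/ob vehicle array 3 together with Cd34, Pi16, Dcn and Lum. The mean of the interstitial progenitor list, 18 measured genes other than the members, was highest on the arrays where Pi16 was, at 8.92 on VE array 1, 8.89 on ob/ob vehicle array 3 and 8.03 on wild type array 3.

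**Figure D3:**
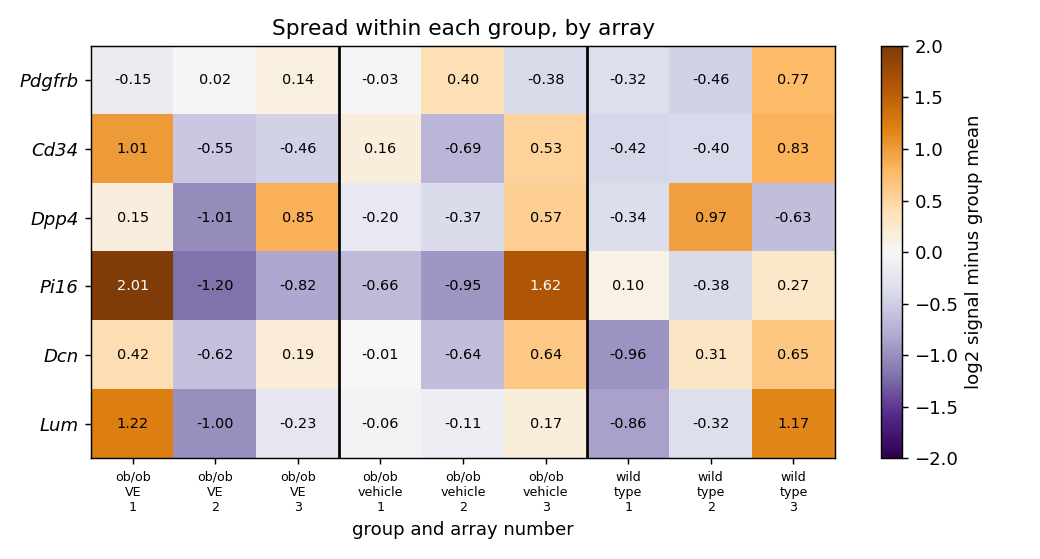
Deviation of each marker's log2 signal from its own group mean (colour and printed value) on each of the 9 arrays. Cd34, Pi16, Dcn and Lum are above the mean together on VE array 1, ob/ob vehicle array 3 and wild type array 3.

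For each marker, the nearest profiles among other named genes were found as the smallest root mean square distance between log2 values centred on their mean over the 9 arrays, which share the group differences. For Pi16 the nearest was Clec3b, which encodes tetranectin, at a distance of 0.487, where the spread of Pi16 about its own mean was 1.12. Clec3b read 9.95, 7.44 and 7.75 in VE, 8.46, 7.70 and 10.39 in ob/ob vehicle and 7.57, 7.95 and 9.52 in wild type mice. The nearest to Pdgfrb was Lmf2, at 0.185 against a spread of 0.79. The nearest to Lum was Insig1, a sterol-sensing regulator, at 0.282 against 1.16, and to Dcn it was Fst, which encodes follistatin, at 0.252 against 0.607. Phldb2 was nearest to Dpp4, at 0.313 against 0.925, and Ttc9 and Il20rb were equally near to Cd34, at 0.344 against 0.752. Ttc9 read 3.30 to 5.42, below the array medians of 6.11 to 6.26, and was not shown to be above background.

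The lists that follow are read beside the shares of all clusters called, 14.1% for ob/ob vehicle and 20.0% for VE against wild type mice. Pdgfrb belongs to a receptor family whose ligands are dimers of platelet-derived growth factor chains. Of 8 other measured ligands and related receptors, 3 were higher and 0 lower in ob/ob vehicle mice when set against wild type. The ligand chain Pdgfa read 9.58, 9.05 and 9.64 in VE-treated mice and 8.59, 8.68 and 8.93 in ob/ob vehicle mice, against 7.32, 7.78 and 7.81 in wild type mice. Against wild type it was higher in ob/ob vehicle mice by 1.10 ± 0.252 (SE, n = 3; adjusted p = 0.0167 by limma). In VE-treated mice it was higher than in wild type mice by 1.79 ± 0.252 (adjusted p = 0.00113 by limma). Without wild type arrays 1 and 2, Pdgfa differed by 0.92 for ob/ob vehicle (adjusted p = 0.121 by limma) and by 1.61 for VE (adjusted p = 0.0124). The receptor-like gene Pdgfrl was higher by 0.92 in ob/ob vehicle mice (adjusted p = 0.0488 by limma). Its wild type signals, 4.95, 5.44 and 5.25, lay below the array medians of 6.11 to 6.26. The macrophage receptor Csf1r, of the same kinase family, was higher by 3.88 ± 0.58. Kit, a mast cell and stem cell receptor of that family, was lower, at −1.49 ± 0.436 in VE than in wild type mice (adjusted p = 0.0369 by limma), where 2 of the 8 were higher and 1 lower. Between VE and ob/ob vehicle 0 of the 8 passed. On all 9 arrays the median difference of the 8 from wild type was 0.99 for ob/ob vehicle and 0.82 for VE. Without wild type arrays 1 and 2 it was 0.26 and 0.14.

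Dcn and Lum belong to the small leucine-rich proteoglycans. Of 14 other measured members, 3 were higher and 1 lower in each ob/ob group than in wild type mice, beside 14.1% of all clusters called for ob/ob vehicle and 20.0% for VE, and 0 passed between VE and ob/ob vehicle. Prelp, a proteoglycan that anchors basement membrane to connective tissue, read 18.50, 18.43 and 17.82 in ob/ob vehicle mice, against 13.93, 14.21 and 15.57 in wild type mice. The groups did not overlap, and the difference was 3.68 ± 0.424 (SE, n = 3; adjusted p = 3.87e-04 by limma). It was 2.68 without wild type arrays 1 and 2 (adjusted p = 0.00264 by limma). Biglycan (Bgn), a close relative of decorin, was higher by 2.26 ± 0.417 and asporin (Aspn) by 1.74 ± 0.408 in ob/ob vehicle mice, and podocan (Podn) was lower, at −1.50 ± 0.391. Without those 2 arrays Bgn stood at 1.65 (adjusted p = 0.0127 by limma), Podn at −2.25 (adjusted p = 0.0116) and Aspn at 1.41 (adjusted p = 0.155). For VE that fit gave 1 higher and 2 lower of the 14. Prelp stood at 2.31 (adjusted p = 0.00524 by limma) and Podn at −2.19 (adjusted p = 0.0119), Bgn was lost at 1.05 (adjusted p = 0.0705), and osteoglycin (Ogn) was called lower at −2.51 (adjusted p = 0.0394).

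**Figure D4:**
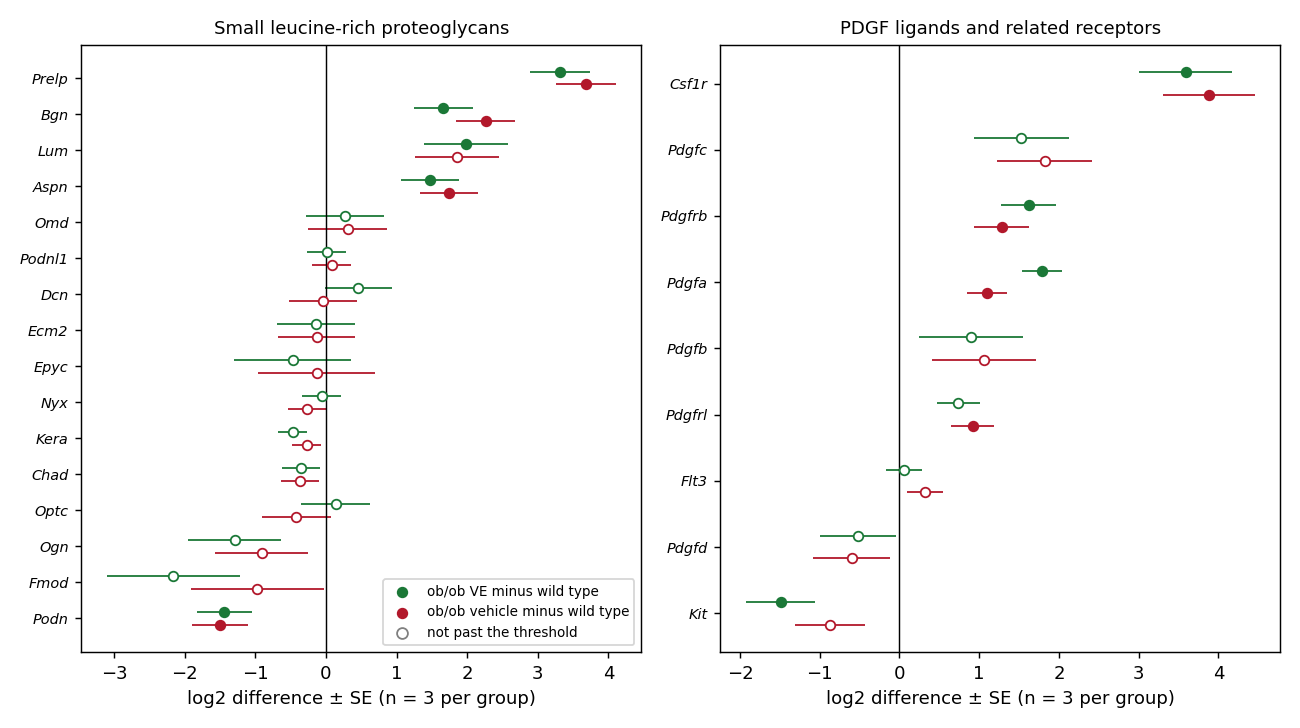
Log2 difference from wild type ± SE (x axis) for small leucine-rich proteoglycans and for PDGF ligands and related receptors (y axes), in VE-treated and vehicle-treated ob/ob mice; filled points passed an adjusted p of 0.05. Prelp, Bgn and Aspn are filled to the right of 0 and Podn to the left in both groups, while Dcn is open in both.

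Other genes of the DPP4 family and of the same cell states gave a mixed picture. Of 8 relatives of Dpp4, 4 were higher and 0 lower in each ob/ob group than in wild type mice. These were Dpp7, Prcp, Fap and Prep. The lysosomal peptidase Dpp7 was higher by 3.37 ± 0.305 in ob/ob vehicle mice (SE, n = 3; adjusted p = 9.31e-05 by limma), and Fap, the fibroblast activation protein and a close relative of Dpp4, by 2.39 ± 0.42 (adjusted p = 0.00435). The carboxypeptidase Prcp was higher by 2.36 ± 0.391 (adjusted p = 0.00325 by limma) and the oligopeptidase Prep by 1.03 ± 0.224 (adjusted p = 0.0132). Fap read 9.07, 9.44 and 10.33 in ob/ob vehicle mice, against 6.47, 7.22 and 7.97 in wild type mice. The median difference of the 8 relatives was 0.84 for ob/ob vehicle and 0.65 for VE. Without wild type arrays 1 and 2 it was 0.79 and 0.6. In that fit the ob/ob vehicle differences of called relatives were smaller, at 3.01 for Dpp7, 1.64 for Fap and 1.91 for Prcp. Of 18 other interstitial progenitor genes, 2 were higher and 1 was lower in ob/ob vehicle mice, a share near the 14.1% of all clusters called. The procollagen enhancer Pcolce2 was higher by 3.19 ± 0.879 and the transcription factor Creb5 by 1.14 ± 0.305, and the growth factor Bmp7 was lower, at −1.79 ± 0.281. For VE, 1 of the 18 (Uchl1) was higher and 1 (Bmp7) lower, beside 20.0% of all clusters called. Pcolce2 (2.78, adjusted p = 0.0505 by limma) and Creb5 (0.44, adjusted p = 0.342) did not pass for VE. Bmp7 read 3.80, 3.84 and 3.75 in ob/ob vehicle mice, against 5.30, 6.15 and 5.32 in wild type mice. These signals were near or below the array medians of 6.11 to 6.26, and were not shown to be above background. The median difference of the 18 for ob/ob vehicle was 0.68, and 0.29 without wild type arrays 1 and 2. Of 15 committed preadipocyte genes, 3 were higher and 0 lower in each ob/ob group, beside 14.1% of all clusters called for ob/ob vehicle and, for VE, 20.0%, the same share as in the list. These were the preadipocyte regulator Zfp423 (2.49 ± 0.5 in ob/ob vehicle mice), the basement membrane collagen Col4a2 (2.11 ± 0.406) and the fatty acid transporter Cd36 (0.95 ± 0.258). For ob/ob vehicle the 3 differences shrank to 1.12, 1.19 and 0.47 without wild type arrays 1 and 2. The median difference of those 15 was 0.36 for ob/ob vehicle and 0.42 for VE. Without wild type arrays 1 and 2 it was 0.16 and 0.04.

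Broader stromal lists were counted in the same way. Of 18 pan-fibroblast genes, 7 were higher, 0 lower and 11 not called in each ob/ob group against wild type mice. The 7 were S100a4, Vim, Mfap5, Fbln2, Serping1, Col5a1 and Col6a2. The median difference of the 18 was 0.87 for ob/ob vehicle and 0.4 for VE, and 0.66 and 0.16 without wild type arrays 1 and 2. Of 10 activated fibroblast genes, 6 were higher in each ob/ob group, and 1, Tagln, was lower in VE. The 6 were Lox, Tnc, Tgfb1, Timp1, Postn and Fap. Lox, which crosslinks collagen, was higher by 4.55 ± 0.492 in ob/ob vehicle mice (adjusted p = 2.73e-04 by limma). The matricellular protein Postn was higher by 2.69 ± 0.47 in ob/ob vehicle mice (SE, n = 3; adjusted p = 0.00424 by limma). The mural genes called lower in each ob/ob group were the smooth muscle genes Cnn1 and Myh11. Of 11 regulatory stromal cell genes, 1 was higher and 1 lower in ob/ob vehicle mice, and of 10 Ly6 family genes 1, Ly6e, was lower, shares near the 14.1% of all clusters called. Of the 2 other sialomucins of the CD34 family, 0 passed for ob/ob vehicle and 1, Podxl, was lower in VE than in wild type mice (−0.81).

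Markers of some other cell types moved in the comparisons with wild type mice, and others did not. The list for dendritic, T and B cells had 0 of 9 measured genes called in both. The mast cell list had 0 of 7 called for ob/ob vehicle, and 1 higher and 1 lower for VE. The macrophage list had 10 of 13 measured genes higher and 0 lower in each ob/ob group, and its mean ran from 11.94 to 12.50 on the VE arrays, from 12.10 to 12.32 on the ob/ob vehicle arrays and from 7.85 to 9.36 on the wild type arrays. The epithelium list had 9 of 12 lower in each ob/ob group, with a mean from 4.31 to 4.91 in VE, 4.58 to 4.68 in ob/ob vehicle and 8.94, 9.26 and 7.05 on wild type arrays 1, 2 and 3. The epithelial marker Epcam read 4.80, 3.89 and 5.10 in ob/ob vehicle mice, against 10.86, 11.15 and 9.91 in wild type mice. Wild type array 3, which had the least epithelial signal of its group, was nearest to the ob/ob arrays for Pdgfrb, Lum and Dpp4. It also had the highest means of its group for the macrophage list, 9.36, and the adipocyte list, 15.02. The part of these cell types in the marker differences was not tested. The adipocyte list had 3 of 10 higher in VE and 1 of 10 higher in ob/ob vehicle mice against wild type. The mesothelium list had 1 of 8 lower in each, the keratin Krt19. It read 4.82, 4.52 and 4.79 in ob/ob vehicle mice, against 11.52, 10.95 and 8.31 in wild type mice. Like the epithelium list, Krt19 was lowest of its group on wild type array 3.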

How the data were processed

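Transcript levels in white adipose tissue were read from the deposited table of log2 values, 1 per transcript cluster and array. Per the series design text the authors made them by SST-RMA in Transcriptome Analysis Console (version 4, per the submitters' processing notes). The genome build was not given in the sources used here. Of 22206 clusters, 19572 carry 1 symbol in the platform annotation, 0 several and 2634 none. Array medians ran from 6.11 to 6.26. Precision is limited by the number of arrays, which carry no read depth.

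limma 3.58.1 in R 4.3.3 fitted 3 group means over 9 arrays and moderated the variances (eBayes, prior df 4.02), with two-sided tests and Benjamini-Hochberg adjustment over 19572 clusters per comparison. For 3 arrays against 3, the smallest exact permutation p is 0.1. The fit was tested on simulated data, where the mean differences came near those put in. Of 50 changes of each size it called 0 at 1.5-fold, 4 at 2-fold, 36 at 4-fold and 44 at 16-fold. The 16-fold changes it missed lay in the noisiest of the clusters so changed. The pass limit of this check, set on the largest changes, was revised after the first run. The labels do not say that each sample is a separate animal. The p-values compare a group difference with the spread between these samples, which may be technical.

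The markers and gene lists were chosen with earlier results of these data known. Every marker is named. Other genes could be named if they were called list members, the 2 of lowest p in a list, or nearest profiles; not all that qualified are named, and which ones are was settled with their values known. Promoters are from RefSeq (GRCm38.p6). The alternatives left out each array in turn, compared the 2 groups alone, added a replicate block, changed the prior (trended, robust), weighted arrays, rescaled them (quantiles, medians), dropped the dimmest 30% of clusters, tested every cluster, or used the submitters' threshold.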

Additional observations from a re-analysis of the deposited data

How the results depend on the processing

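With 3 arrays per group, a p that misses the threshold does not show that a marker did not differ. For ob/ob vehicle against wild type mice, 1 marker was called, and 0 were called with only the 2 groups compared, with the replicate block, with quantile normalization or without wild type arrays 1 and 2 together, and 3 at the submitters' threshold; leaving out 1 array gave 0 to 2. For VE against wild type mice, 2 were called, and 1 with only the 2 groups compared, with the replicate block or with array weights, and 0 without wild type arrays 1 and 2 together; leaving out 1 array gave 1 to 3. With quantile normalization the 2 were Pdgfrb and Dpp4 (−1.73, adjusted p = 0.0412 by limma), not Lum. For VE against ob/ob vehicle mice, 0 were called under all 19 alternatives run. The cause of these changes was not tested.

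Over all clusters, ob/ob vehicle against wild type gave 2754 calls, 1814 with only the 2 groups compared, 5555 at the submitters' threshold, and 1641 to 3545 with 1 array left out. VE against wild type gave 3920, 6630 at the submitters' threshold and 2314 to 4706 with 1 array left out. VE against ob/ob vehicle gave 5, 19 with only the 2 groups compared, 0 with the replicate block, 12 with a robust prior, 41 with array weights, 1 with quantile normalization, 893 at the submitters' threshold and 0 to 21 with 1 array left out. Arrays of the same number share only a number: the correlation of their deviations from group means ran from −0.0635 to 0.181, so the replicate block is not a paired analysis. Of the differences of single markers, none that was called changed sign.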
